A study of Mus musculus with 37 samples.

Results

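To examine the genes that restrain the inflammatory response of macrophages, the mRNA levels of 10 feedback inhibitors were followed in bone marrow-derived macrophages (BMDMs) after TLR4 activation. The members were taken by symbol from the deposited expression table: the SOCS family genes Socs1, Socs2, Socs3 and Cish, the dual-specificity phosphatase genes Dusp1, Dusp2, Dusp6 and Dusp16, and the CCCH zinc finger genes Zfp36 and Zc3h12a. All 10 were found among the 24016 genes of the table. Of these, 8 were among the 10499 genes analysed, which had at least 100 scaled reads in 1 or more WT libraries, whereas Cish and Socs2 stayed below that level and are described apart. The BMDMs came from wild-type (WT) and Arntl-/- male mice of 6 to 9 weeks of age. Arntl encodes the circadian transcription factor Bmal1, and its deletion was carried in the germline, so that all cells of the body lacked it during development as well as in culture. The knockout was made on the C57BL/6 background. The sources used here describe the WT mice both as littermates and as C57BL/6J animals from a breeder, and do not give the number of mice behind a culture. Marrow cells of both genotypes were grown with M-CSF for 6 days in RPMI-1640 with serum and then exposed to Kdo2-lipid A (KLA), the part of lipopolysaccharide that TLR4 recognizes, for 0, 6, 24 or 48 h. PolyA RNA was sequenced in 8 libraries, 1 for each genotype and time. There was therefore no replicate of a condition, a difference at a single time or between times within a genotype could not be tested, and all differences below compare single libraries. A test of genotype over all times together was not run.

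Feedback inhibitors are genes that are switched on by a signal and whose proteins then dampen the same signal. SOCS proteins bind activated cytokine receptors or Janus kinases (JAKs) through an SH2 domain and recruit a ubiquitin ligase through their SOCS box, which ends signaling to STAT transcription factors. Dual-specificity phosphatases (DUSPs) remove the activating phosphates from the MAP kinases ERK, p38 and JNK. Tristetraprolin, encoded by Zfp36, and Regnase-1, encoded by Zc3h12a, act later and shorten the life of cytokine mRNAs. In macrophages many of these genes belong to the early response to lipopolysaccharide, which begins well before the first time sampled here after 0 h.

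Sequences upstream of the members are shown because the members differ in the regulatory motifs found there. For Socs1 and Dusp2, the members with the widest differences between genotypes, the 250 bases before the transcript start of the deposited table were read from the mm9 genome, 5′ to 3′ on the strand of the gene. Neither window overlapped an exon of the GENCODE annotation of that build. Capitals mark motif matches on either strand, which for Socs1 are overlapping copies of the interferon-stimulated response element core (GAAA, any 2 bases, GAAA) at 83 and 77 bases before the start (chr16:10785630-10785879, minus strand), and for Dusp2 the E-box CACGTG, the motif that Clock and Bmal1 recognize, at 109 bases before it (chr2:127161645-127161894, plus strand).
Socs1: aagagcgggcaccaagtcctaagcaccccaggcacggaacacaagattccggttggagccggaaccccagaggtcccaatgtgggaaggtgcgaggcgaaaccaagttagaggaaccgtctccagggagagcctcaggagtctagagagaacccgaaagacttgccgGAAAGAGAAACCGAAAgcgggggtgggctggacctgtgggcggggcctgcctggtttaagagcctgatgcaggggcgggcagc
Dusp2: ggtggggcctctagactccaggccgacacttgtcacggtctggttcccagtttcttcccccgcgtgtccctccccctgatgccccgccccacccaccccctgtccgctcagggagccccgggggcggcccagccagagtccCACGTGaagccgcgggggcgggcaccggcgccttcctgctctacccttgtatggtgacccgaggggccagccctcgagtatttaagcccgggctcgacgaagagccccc
The windows of 4 other members held a match but overlapped exons of the GENCODE annotation, and only 30 bases around the match are shown. The overlap was 250 of the 250 bases for Cish, 77 for Socs3, 47 for Dusp1 and 27 for Zfp36. Dusp1 (chr17:26645535-26645564, minus strand) held the cyclic AMP response element TGACGTCA and an E-box. Socs3 (chr11:117830816-117830845, minus strand), Cish (chr9:107198985-107199014, plus strand) and Zfp36 (chr7:29164248-29164277, minus strand) held the STAT motif TTCNNNGAA, which Cish held in tandem.
Dusp1: cgggTGACGTCAccgcccggtCACGTGtct
Socs3: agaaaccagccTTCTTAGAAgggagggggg
Cish: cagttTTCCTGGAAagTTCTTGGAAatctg
Zfp36: gccacagcctgacTTCTGCGAAccgacagt
Of 8 motifs searched, the E-box lay in 2 of the 10 member windows and in 6.58% of the 23951 windows of all genes. The STAT motif lay in 3 member windows and in 6.81% of all windows, the cyclic AMP response element in 1 and in 2.03%, and the interferon-stimulated response element core in 1 and in 3.1%. None of the member windows held the NF-kB motif (GGG, any 2 bases, TTTCC), the AP-1 motif TGANTCA, the C/EBP motif TTGCNNCAA or the PU.1 core GAGGAAGT, which lay in 1.36%, 6.15%, 1.64% and 2.3% of all windows. The windows of Socs2, Dusp6, Dusp16 and Zc3h12a held none of the 8, and that of Socs2 lay in GENCODE exons over 171 of its 250 bases. A match describes the letters of this window and is not a binding site. The G and C content of the member windows was between 52% and 71.6%, against a median of 55.2% over all genes.

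The libraries held between 8587556 and 27036779 reads on genes, and WT macrophages at 6 h were sequenced most deeply. Levels are given as scaled FPKM, the deposited FPKM divided by a size factor of the library (0.909 to 1.11), and the reads behind a value were recovered from the table. Arntl itself was at a scaled FPKM of 32.6 to 39.1 in the 4 WT libraries and of 11.4 to 20.4 in the 4 Arntl-/- libraries, where 75 to 136 reads remained, and it was lower in Arntl-/- macrophages by 2.46-, 2.84-, 1.89- and 1.91-fold at 0, 6, 24 and 48 h. The table counts reads over all exons, so that the deleted part of the gene cannot be read apart from the rest. All 9 macrophage markers were detected in every library, with a summed scaled FPKM of 16200 to 39600. Of the neutrophil markers, 7 of 8 were in the table, none had more than 3 reads in every library and Mpo was at 0 throughout. Their sum was 59.7, 59.4, 46.7 and 7.66 in WT macrophages and 149, 93.2, 84.2 and 29.3 in Arntl-/- macrophages at 0, 6, 24 and 48 h. The 8 stromal markers were detected in every library and summed to 445, 531, 586 and 1206 in WT macrophages and to 335, 368, 394 and 731 in Arntl-/- macrophages. The T cell markers, with Cd3e and Cd3g at 0, summed to at most 16.1 in any library, the dendritic cell markers, with Cd209a at 0, to at most 11 and the mast cell markers to at most 2.19, whereas the B cell markers summed to 21.4 to 60.8. A lower share of cells of a type and less RNA per cell cannot be told apart in these bulk libraries.

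The members covered a wide range of levels, which FPKM expresses per kilobase of exon. Over the 8 libraries the mean scaled FPKM was highest for Dusp1 (567), Dusp6 (455), Zfp36 (400) and Socs3 (391), followed by Zc3h12a (227). Dusp16 (61.1), Socs1 (56.8) and Dusp2 (22.8) formed a lower tier, Cish stood at 9.06 and Socs2 was close to undetected. A member was counted as different where the ratio of its scaled FPKM, with a pseudocount of 0.1, was at least 1.5-fold. The interval beside each ratio is an exact binomial interval at the 95% level on the recovered reads. It covers counting error only and is too narrow even for that, because mates of a pair and PCR duplicates are not independent.

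**Figure D1:**
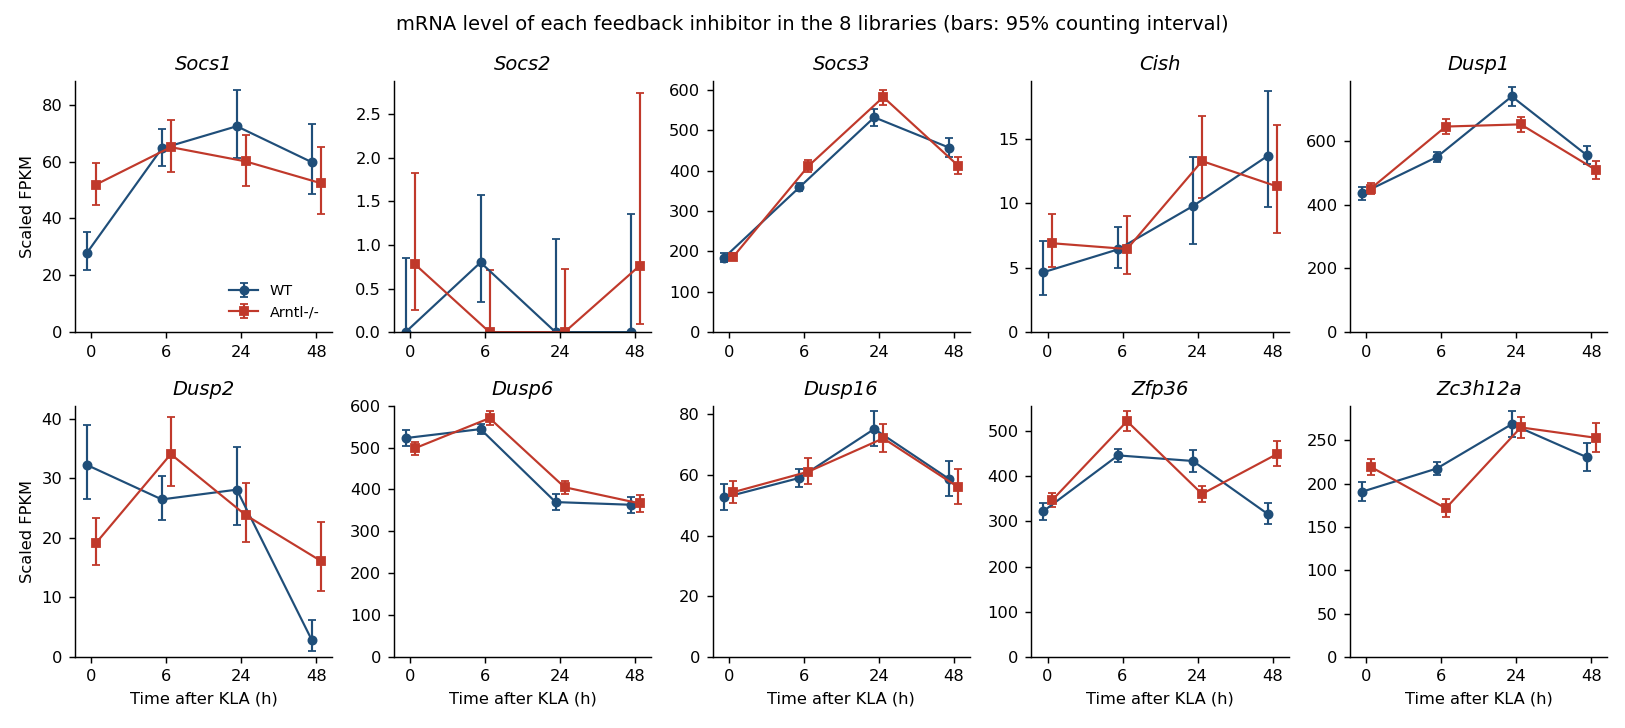
Scaled FPKM (vertical axis, from 0, one scale per gene) of the 10 members in WT (blue circles) and Arntl-/- macrophages (red squares) at 0, 6, 24 and 48 h after KLA (evenly spaced on the horizontal axis), 1 library per point, with exact Poisson counting intervals at the 95% level. Socs3 runs from 185 and 187 at 0 h to 532 and 583 at 24 h, the curves of Socs1 separate at 0 h, and those of Dusp2 separate at 0 h, with the WT library higher, and at 48 h, with the Arntl-/- library higher.

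In WT macrophages, 2 of the 8 members analysed were at least 1.5-fold higher at 6 h than at 0 h (Socs1 and Socs3), where 5.39% of all genes analysed were, and none was 1.5-fold lower, where 3.58% were. Socs1 had under 100 scaled reads at 0 h and was analysed through its later WT libraries, where it was higher. With the values as deposited, which are not divided by size factors, the shares of all genes at 6 h were 9.87% higher and 1.07% lower, and 3 members passed. At 24 h Socs1, Socs3 and Dusp1 were higher (3 of 8, against 8.7% of all genes) and none was lower (8.84%). At 48 h Socs1 and Socs3 were higher (2 of 8, against 13.5%) and Dusp2 was lower (1 of 8, against 15.2%). As deposited, the shares at 48 h were 9.81% and 20.3%, and 4 members passed. In Arntl-/- macrophages, 3 members were higher at 6 h (Socs3, Dusp2 and Zfp36, against 3.1% of all genes) and none was lower (3.4%), with shares of 2.37% and 4.57% as deposited and of 3.68% and 2.25% with a lowess correction on FPKM, which removes the trend of the ratio with expression level. In each of these 2 settings 2 members passed at 6 h, without Zfp36. Socs3 was the 1 member past 1.5-fold at 24 h (7.79% higher and 9.62% lower over all genes) and again at 48 h (15.2% higher and 17.3% lower, or 10.1% and 24.2% as deposited). As deposited and with the lowess correction on FPKM, 2 members passed at 48 h, with Dusp6 lower. The median log2 change of the 8 members was 0.26, 0.51 and 0.22 in WT macrophages at 6, 24 and 48 h and 0.42, 0.29 and 0.11 in Arntl-/- macrophages, while the medians of all genes lay between -0.03 and 0.01. The responses of a genotype share its 0 h library, so that their agreement over time is not independent.

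**Figure D2:**
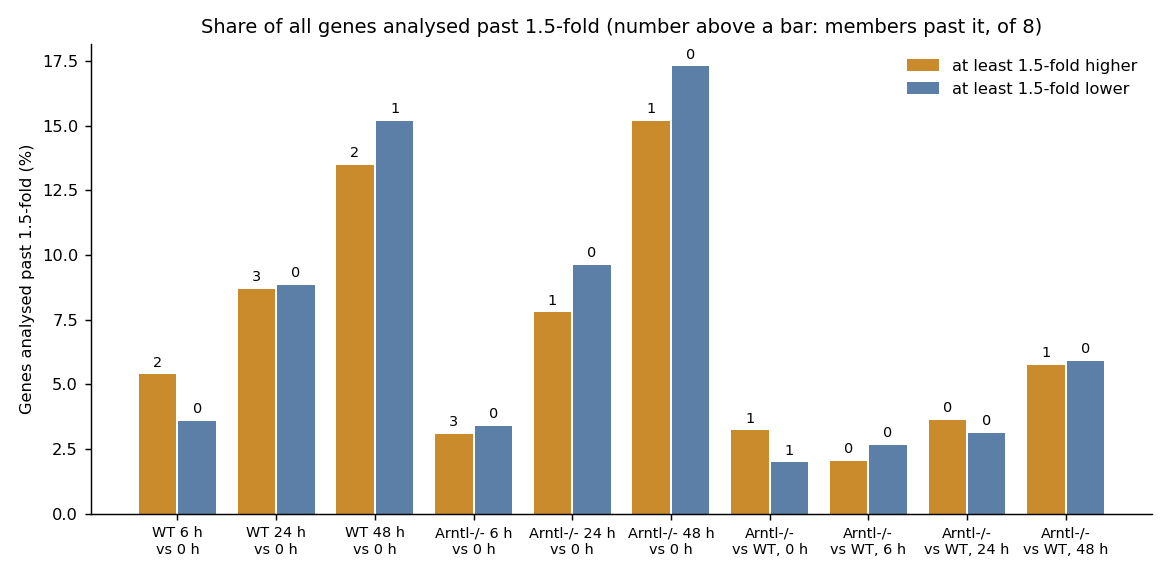
Percent of the 10499 genes analysed (vertical axis) that were at least 1.5-fold higher (ochre bars) or lower (blue bars) in each of the 10 comparisons, with the number of members past 1.5-fold, of 8, above each bar. The shares run from 1.99% to 17.3% and are highest at 48 h against 0 h, where 2 or fewer members passed in a given direction.

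Socs3 was the member with the most lasting difference from 0 h in both genotypes. Its protein blocks JAKs bound to gp130, the shared receptor chain of the IL-6 family. In WT macrophages Socs3 (chromosome 11, 117827401 to 117830680, minus strand) had a scaled FPKM of 185, 359, 532 and 457 at 0, 6, 24 and 48 h, and in Arntl-/- macrophages of 187, 411, 583 and 412. Both genotypes were lowest at 0 h and highest at 24 h. Against 0 h, Socs3 was 1.94-fold higher at 6 h (1.81 to 2.08), 2.88-fold at 24 h (2.68 to 3.1) and 2.47-fold at 48 h (2.29 to 2.67) in WT macrophages. In Arntl-/- macrophages the corresponding ratios were 2.2 (2.07 to 2.34), 3.11 (2.94 to 3.3) and 2.2 (2.05 to 2.37). Which genotype changed more at 6 h depended on the scaling. The WT and Arntl-/- log2 changes were 0.96 and 1.14 with the size factors, but 1.11 and 1.08 with the values as deposited. They were 1.07 and 1.05 with the lowess correction on FPKM and 1.06 and 1.08 with that on reads. Between genotypes the ratio stayed between 0.902 and 1.15 at all times, and at 0 h the interval of 0.935 to 1.09 held 1. Of 7 steps between neighbouring levels of the 8 libraries, 5 exceeded counting error.

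Socs1 was the member that differed most in resting cells. It encodes an inhibitor of JAK1, JAK2 and TYK2 and is known as a brake on interferon signaling. In WT macrophages its scaled FPKM (chromosome 16, 10783902 to 10785629, minus strand) was 27.8, 64.7, 72.5 and 59.8 at 0, 6, 24 and 48 h, from 71, 380, 146 and 96 reads. In Arntl-/- macrophages it was 51.9, 65.1, 60.1 and 52.4, from 195, 199, 181 and 81 reads. The WT library at 0 h stood below the other libraries, and it formed the 1 step of 7 between neighbouring levels that exceeded counting error. Socs1 was accordingly 1.86-fold higher in Arntl-/- than in WT macrophages at 0 h (1.41 to 2.48), which placed it 103rd from the top of 10499 genes. At 6, 24 and 48 h the genotype ratio was 1.01, 0.829 and 0.877, with intervals that held 1. The change from 0 h rests on the same WT library. It was 2.32-fold at 6 h (1.8 to 3.04), 2.6-fold at 24 h (1.95 to 3.51) and 2.15-fold at 48 h (1.56 to 2.96) in WT macrophages, and 1.25-fold (1.02 to 1.54), 1.16-fold (0.94 to 1.42) and 1.01-fold (0.77 to 1.32) in Arntl-/- macrophages. On the log2 scale the Arntl-/- change was smaller than the WT change by 0.89, 1.17 and 1.09, differences that share both 0 h libraries and were not tested. Socs1 entered the genes analysed through the WT libraries after KLA, with 173, 194 and 160 scaled reads at 6, 24 and 48 h against 74.4 at 0 h, a filter that favours a low WT value at 0 h and so bears on the WT changes and on the genotype ratio at 0 h. Socs1 was covered by few reads, and of the 1155 genes analysed with under 200 scaled reads in every WT library, as Socs1 had, 14% were at least 1.5-fold higher and 7.01% lower in Arntl-/- macrophages at 0 h. Neutrophil markers summed to 59.7 in WT and 149 in Arntl-/- macrophages at that time and stromal markers to 445 and 335, and their part in the result was not tested.

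Cish and Socs2, the other SOCS genes among the members, were the least expressed. Cish is a target of STAT5 and its protein restrains signaling by receptors that use STAT5, such as those for GM-CSF and IL-3. In WT macrophages Cish (chromosome 9, 107199020 to 107204292, plus strand) had a scaled FPKM of 4.64, 6.43, 9.79 and 13.7, from 21, 67, 35 and 39 reads, and in Arntl-/- macrophages of 6.9, 6.45, 13.3 and 11.3, from 46, 35, 71 and 31 reads. The 24 and 48 h libraries of each genotype were higher than its 0 and 6 h libraries, but no step between neighbouring levels exceeded counting error. Against 0 h, Cish was 2.09-fold higher at 24 h (1.19 to 3.81) and 2.91-fold at 48 h (1.69 to 5.28) in WT macrophages, and 1.91-fold (1.31 to 2.85) and 1.63-fold (1 to 2.64) in Arntl-/- macrophages, where the last ratio was short of 1.5-fold with the values as deposited. Its largest value in a WT library was 64.9 scaled reads, and it is not in the counts of members above. Between genotypes every interval held 1, the widest ratio being 1.48 at 0 h (0.87 to 2.62). Socs2, best known as a brake on growth hormone signaling, was represented by 8 reads in WT macrophages at 6 h, 5 in Arntl-/- macrophages at 0 h and 2 at 48 h, and by 0 in the other libraries. With 3 reads as the limit that a count of 0 allows, the scaled FPKM there could be up to 0.576 to 1.1, and the two-sided Poisson intervals reach 0.708 to 1.35, so the levels of Socs2 (chromosome 10, 94874124 to 94877917, minus strand) could not be told apart at this depth.

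**Figure D3:**
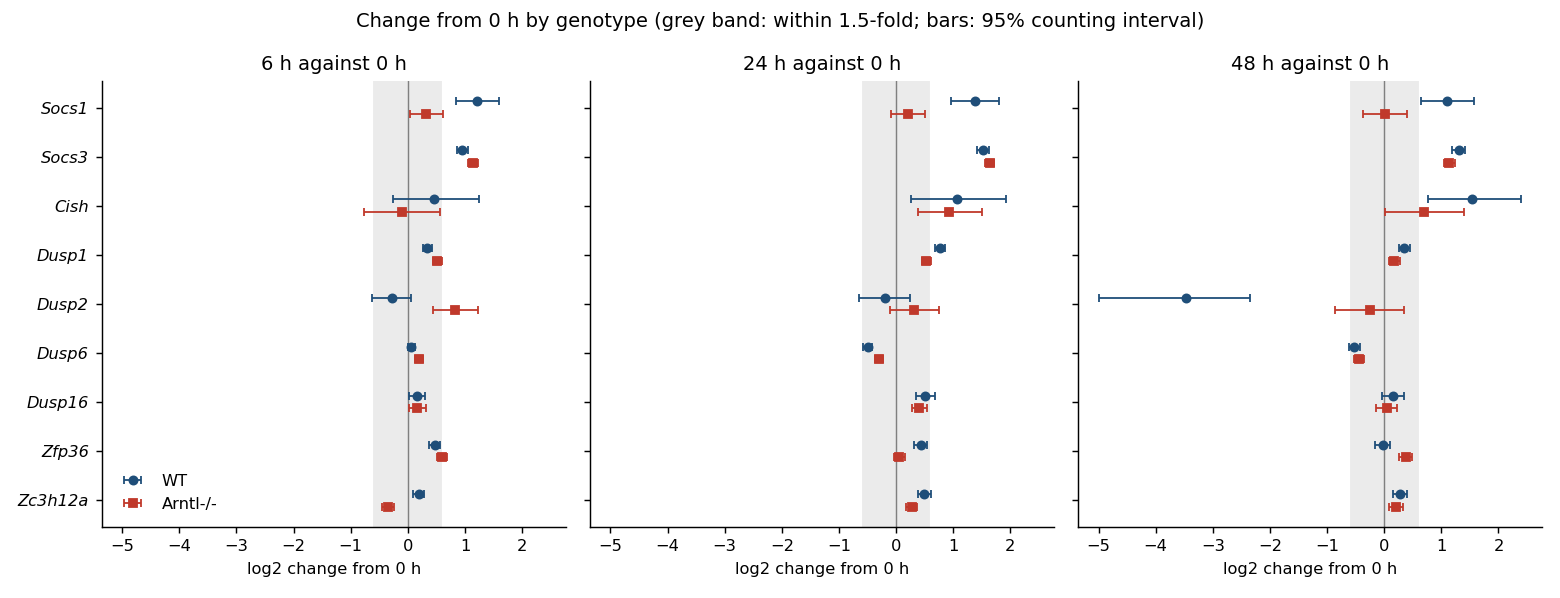
log2 change from 0 h (horizontal axis) of the 9 members with a ratio (rows) at 6, 24 and 48 h in WT (blue circles) and Arntl-/- macrophages (red squares), with exact binomial counting intervals at the 95% level and a grey band for changes within 1.5-fold. Socs3 lies to the right of the band in both genotypes at all 3 times, Socs1 in WT macrophages alone, and Dusp2 lies at -3.47 in WT macrophages at 48 h.

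Dusp1 was the most abundant member and showed a modest peak. It encodes the nuclear phosphatase MKP-1, which dephosphorylates p38 and JNK and is a known early target of TLR signaling. In WT macrophages Dusp1 (chromosome 17, 26642536 to 26645417, minus strand) had a scaled FPKM of 435, 549, 740 and 555, and in Arntl-/- macrophages of 450, 645, 652 and 509. The WT value was highest at 24 h, whereas the Arntl-/- values at 6 and 24 h were not distinguishable by counting. WT macrophages at 24 h were 1.7-fold above 0 h (1.6 to 1.81), the 1 call for this gene. The Arntl-/- ratios of 1.43 at 6 h (1.36 to 1.51) and 1.45 at 24 h (1.37 to 1.52) were just short of the line. At 24 h the Arntl-/- log2 change differed from the WT change by -0.23, with the same sign under all scalings tried. At 6 h the order of the genotypes depended on the scaling. The WT and Arntl-/- log2 changes were 0.34 and 0.52 with the size factors, but 0.49 and 0.46 with the values as deposited, 0.55 and 0.38 with the lowess correction on FPKM and 0.46 and 0.46 with that on reads. These differences share both 0 h libraries and were not tested. Between genotypes the ratio lay between 0.881 and 1.17, the latter at 6 h, where the log2 ratio of 0.23 was 0.00 with the lowess correction on FPKM. Dusp1 carried up to 2.66 reads per exon base (WT macrophages at 6 h), close to the setting of at most 3 tags per position used in the counting, although the densest gene of that library carried 36.9, and an effect of that setting on Dusp1 was not tested.

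Dusp2 gave the widest differences of all members, on few reads. It encodes PAC-1, a nuclear MAP kinase phosphatase of immune cells. In WT macrophages Dusp2 (chromosome 2, 127161895 to 127164113, plus strand) had a scaled FPKM of 32.2, 26.4, 28.1 and 2.82, from 109, 206, 75 and 6 reads. In Arntl-/- macrophages it was 19.1, 34, 23.8 and 16.1, on 95, 138, 95 and 33 reads. The WT library at 48 h stood far below the rest, and this was the 1 step between neighbouring levels, of 7, that exceeded counting error. In WT macrophages Dusp2 was 11.1-fold lower at 48 h than at 0 h (log2 -3.47, interval -4.99 to -2.35), the 10th lowest ratio of 10499 genes. The corresponding log2 change in Arntl-/- macrophages was -0.24 (-0.86 to 0.34). At 6 h Dusp2 was 1.78-fold higher than at 0 h in Arntl-/- macrophages (1.36 to 2.34) and had a ratio of 0.821 (0.647 to 1.04) in WT macrophages. Between genotypes it was 1.69-fold lower in Arntl-/- macrophages at 0 h (log2 -0.75, interval -1.17 to -0.35), stood at ratios of 1.29 and 0.848 at 6 and 24 h, and was 5.55-fold higher at 48 h (2.36 to 16.7), the 9th highest ratio of all genes. Dusp2 entered the genes analysed through the WT library at 0 h alone, with 114 scaled reads against 93.6 at 6 h, 99.4 at 24 h and 9.99 at 48 h, a filter that favours a higher value there and so bears on the WT changes and on the genotype ratio at 0 h. Among the 1155 genes with under 200 scaled reads in every WT library, 22.3% were at least 1.5-fold higher and 18% lower in Arntl-/- than in WT macrophages at 48 h, and 26.3% were lower in WT macrophages at 48 h than at 0 h. The neutrophil marker sum was also lowest in WT macrophages at 48 h (7.66, against 29.3 in Arntl-/- macrophages). No neutrophil marker had more than 3 reads in every library. The 1 among the genes analysed fell from 0 to 48 h in both genotypes (log2 -7.58 in WT and -8.75 in Arntl-/- macrophages). Its log2 ratio between genotypes at 48 h was 0.0. Stromal markers were highest in WT macrophages at 48 h (1206, against 731), and the part of either marker group in the result was not tested.

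Dusp6 and Dusp16 stayed within 1.5-fold in every comparison. Dusp6 encodes MKP-3, a cytoplasmic phosphatase selective for ERK, and Dusp16 encodes MKP-7, which acts on JNK and p38. Dusp6 (chromosome 10, 98725865 to 98730123, plus strand) stood at 523, 544, 370 and 363 scaled FPKM in WT macrophages and at 498, 570, 405 and 367 in Arntl-/- macrophages. The 0 and 6 h libraries lay above the 24 and 48 h libraries in both genotypes without overlap. Dusp6 was lower at 48 h than at 0 h by 1.44-fold in WT and by 1.36-fold in Arntl-/- macrophages. Both ratios passed the line with the values as deposited (log2 -0.66 in WT and -0.62 in Arntl-/- macrophages) and with the lowess correction on FPKM (-0.67 and -0.64), and the WT ratio also with the lowess correction on reads (-0.62, against -0.58 in Arntl-/- macrophages). Dusp16 (chromosome 6, 134665486 to 134742646, minus strand) stood at 52.6, 59, 75.2 and 58.6 scaled FPKM in WT and at 54.3, 61.1, 72.1 and 55.9 in Arntl-/- macrophages. It was highest at 24 h in both, at 1.43-fold (1.27 to 1.6) and 1.33-fold (1.21 to 1.46) of 0 h. Its ratio between genotypes lay between 0.955 and 1.04, with an interval that held 1 at each time.

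Zfp36 differed between genotypes mainly in the late libraries. Tristetraprolin, its product, binds AU-rich elements in cytokine mRNAs and brings the CCR4-NOT deadenylase to them. Zfp36 (chromosome 7, 29161803 to 29164247, minus strand) measured 322, 446, 434 and 316 scaled FPKM in WT macrophages and 347, 522, 361 and 449 in Arntl-/- macrophages. The WT libraries at 0 and 48 h did not differ beyond counting error, while the Arntl-/- library at 48 h lay above that at 24 h. At 6 h Zfp36 was 1.51-fold above 0 h in Arntl-/- macrophages (1.42 to 1.6), and 1.39-fold in WT macrophages (1.3 to 1.48). Both values lie near the line, and which genotype passed depended on the scaling. With the values as deposited the log2 change was 0.53 in Arntl-/- and 0.63 in WT macrophages, and with the lowess correction on FPKM 0.49 and 0.60, so that WT macrophages alone passed. With the lowess correction on reads neither passed (0.56 and 0.53). The genotype ratio was 1.08 at 0 h, 1.17 at 6 h, 0.832 at 24 h (0.772 to 0.896) and 1.42 at 48 h (1.29 to 1.57), so that it lay on different sides of 1 at 24 and 48 h by more than counting error without passing 1.5-fold. The log2 ratio of 0.23 at 6 h was 0.09 with the values as deposited and 0.07 with the lowess correction on FPKM.

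Zc3h12a stayed within 1.5-fold in every comparison. Regnase-1, its product, is an endonuclease that cleaves stem-loops in mRNAs such as Il6. Zc3h12a (chromosome 4, 124795658 to 124805125, minus strand) measured 191, 218, 269 and 231 scaled FPKM in WT macrophages and 219, 172, 265 and 253 in Arntl-/- macrophages. The Arntl-/- library at 6 h was the lowest of all 8. From 0 to 6 h its log2 change was 0.19 (0.09 to 0.29) in WT and -0.35 (-0.46 to -0.25) in Arntl-/- macrophages, and between genotypes the ratio was 0.789 at 6 h (0.737 to 0.844), 1.15 at 0 h, 0.987 at 24 h and 1.1 at 48 h.

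Between genotypes few members passed the line. At 0 h, 1 of 8 was at least 1.5-fold higher in Arntl-/- macrophages (Socs1, against 3.22% of all genes) and 1 was lower (Dusp2, against 1.99%), with shares of 4.58% and 1.36% as deposited and of 2.64% and 2.46% with the lowess correction on reads. Both members were analysed through the WT libraries in which they were high, Socs1 after KLA and Dusp2 at 0 h, and the filter thus favours both calls. At 6 h none was higher (2.03%) or lower (2.66%), with shares of 0.676% and 5.02% as deposited, 1.74% and 1.42% with the lowess correction on FPKM and 2.1% and 1.51% with that on reads. At 24 h none was higher (3.62%) or lower (3.13%). At 48 h Dusp2 was higher (5.75%) and none was lower (5.91%). Both genes that passed are among the less expressed members, while the 4 members with a mean scaled FPKM of 391 or more stayed within 1.5-fold between genotypes at all 4 times.

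**Figure D4:**
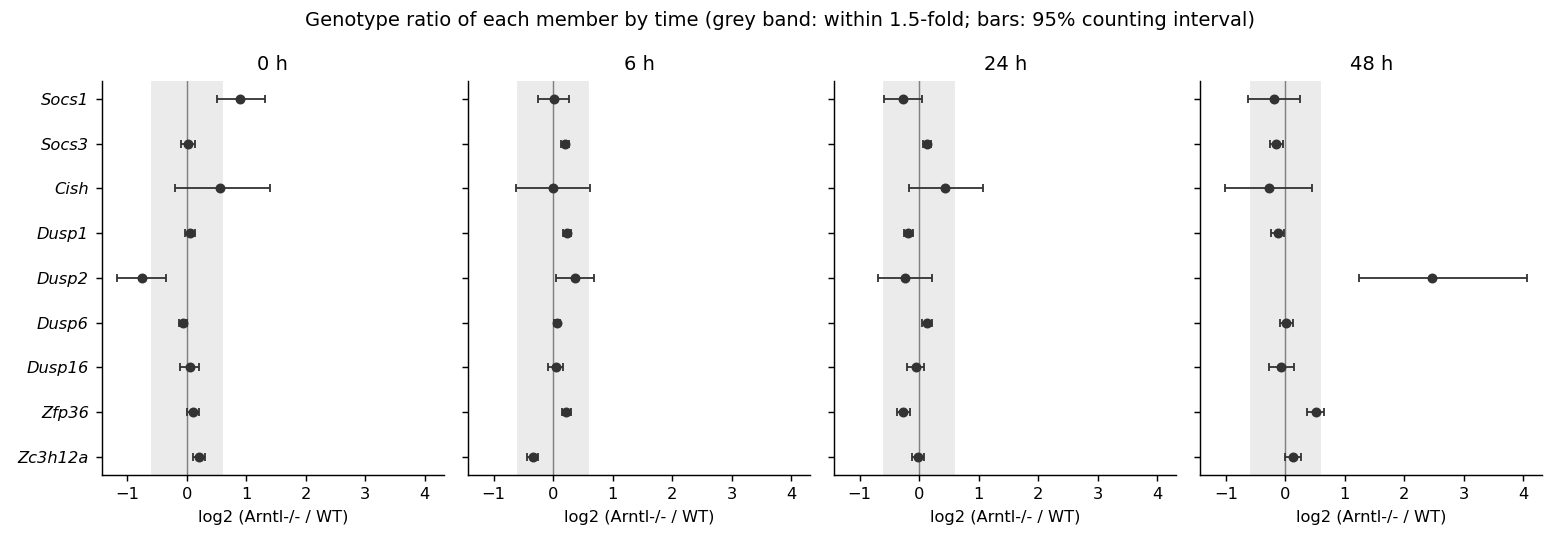
log2 ratio of Arntl-/- to WT scaled FPKM (horizontal axis) of the 9 members with a ratio (rows) at 0, 6, 24 and 48 h, with exact binomial counting intervals at the 95% level and a grey band for ratios within 1.5-fold. Socs1 at 0 h (0.90) lies right of the band and Dusp2 lies left of it at 0 h (-0.75) and right of it at 48 h (2.47), and all other points lie inside.

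The other genes of the same pathways were counted from lists, and the genes named for having passed the line were chosen after their values were seen. The shares of all genes given above for each comparison are also the background of these counts. A gene with under 100 scaled reads in 1 WT library was analysed through another in which it was higher, which bears on its ratios to both. None of the 4 other SOCS genes (Socs4 to Socs7) passed 1.5-fold between genotypes at any time. Socs7 had log2 changes of 0.36 and 0.54 at 6 h in WT and Arntl-/- macrophages, and Socs5 of 0.55 and 0.32. Socs7 was higher than at 0 h in both genotypes at 24 h (0.71 and 0.73, against 8.7% and 7.79% of all genes). It was also higher at 48 h (0.60 and 0.65, against 13.5% and 15.2%), as was Socs5 in WT macrophages (0.60). None of the 4 was lower than at 0 h. Of the 12 other DUSP genes analysed, of 17 listed, Dusp7, Dusp10, Dusp12 and Dusp22 were lower in WT macrophages at 24 h (4 genes, against 8.84% of all genes) and none was higher (8.7%). Dusp7, Dusp10 and Dusp22 were also lower in Arntl-/- macrophages at 24 h (3 genes, against 9.62%), where Dusp28 was higher (7.79%). In WT macrophages Dusp10, Dusp12 and Dusp22 had 32, 70 and 46 reads at 24 h and 94, 175 and 109 at 0 h. In Arntl-/- macrophages Dusp10 and Dusp22 had 85 and 52 reads at 24 h and 182 and 113 at 0 h. Of the 1155 genes with under 200 scaled reads in every WT library, 19.8% and 20.1% were lower at 24 h in WT and Arntl-/- macrophages. Dusp7, which encodes an ERK phosphatase related to Dusp6, was covered by 1397 to 4229 reads in these libraries and had log2 changes of -0.94 and -0.81. At 6 h, Dusp19 was higher in WT macrophages (1 of 12, against 5.39% of all genes) and none was lower (3.58%). In Arntl-/- macrophages Dusp10 and Dusp22 were lower (2 of 12, against 3.4%) and none was higher (3.1%). The log2 changes in WT and Arntl-/- macrophages were 0.92 and -0.06 for Dusp19 and -0.36 and -0.61 for Dusp22. For Dusp10 the Arntl-/- change was -0.75, on 88 reads at 6 h and 182 at 0 h. Between genotypes, Dusp19 was higher in Arntl-/- macrophages at 0 h (log2 ratio 0.68) and Dusp10 at 24 h (0.82, on 85 and 32 reads), and Dusp22 was lower at 6 h (-0.75). At 48 h Dusp19 (1.80, on 71 Arntl-/- and 21 WT reads) and Dusp5 (1.02, on 41 and 21 reads) were higher and Dusp22 was lower (-1.21, on 22 and 53 reads). At 48 h against 0 h, 4 of the 12 were lower in WT macrophages (Dusp5, Dusp7, Dusp12 and Dusp19, against 15.2% of all genes) and 2 were higher (Dusp4 and Dusp18, against 13.5%), and in Arntl-/- macrophages 4 were lower (Dusp5, Dusp7, Dusp12 and Dusp22, against 17.3%) and 2 were higher (Dusp18 and Dusp28, against 15.2%). Of the 10 other CCCH and AU-rich element binding genes analysed, of 12, Hnrnpd was the 1 past the line at 6 h, with a log2 change of -0.72 in WT macrophages and -0.03 in Arntl-/- macrophages, and Zfp36l1, a relative of Zfp36, had -0.30 and -0.32. Zc3h12c, a relative of Zc3h12a, was the 1 of these that passed between genotypes, with a log2 ratio of -0.66 at 48 h.

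The signaling genes upstream of the inhibitors were counted in the same way. Of 31 JAK-STAT and cytokine receptor genes analysed, of 32, 8 were higher in WT macrophages at 24 h (8.7% of all genes were) and 7 in Arntl-/- macrophages (7.79%), and none was lower in either (8.84% and 9.62%). At 48 h, 6 were higher (13.5%) and 1 was lower (Il6st at -0.73, 15.2%) in WT macrophages. In Arntl-/- macrophages 7 were higher (15.2%) and 1 was lower (Stat5a at -0.82, 17.3%) at that time. None of the 31 passed 1.5-fold between genotypes at any of the 4 times, where 1.99% to 5.91% of all genes did in a given direction. Stat2, a partner in interferon signaling, had log2 changes of 0.78 and 0.65 at 6 h and of 1.37 and 1.21 at 48 h in WT and Arntl-/- macrophages, and Il13ra1, a receptor chain for IL-4 and IL-13, of 0.50 and 0.75 at 6 h. Of the cytokines that signal through JAK-STAT, 3 of 15 were analysed. Csf3, which encodes G-CSF, had log2 changes of 1.16 and 0.99 at 6 h, and Il15 of 1.41 and 0.22. At 0 h these 2 of 3 genes were higher in Arntl-/- macrophages by log2 0.68 and 0.72 (3.22% of all genes were), on 67 and 92 WT reads. Both had under 100 scaled reads in that WT library and were analysed through later ones, which favours a low WT value at 0 h and so bears on these ratios and on the WT changes. At 48 h Csf3 had a log2 ratio of -1.10, on 25 Arntl-/- and 56 WT reads. Of 24 MAP kinase cascade genes analysed, of 27, Rps6ka5 was the 1 past the line at 6 h in WT macrophages and none was in Arntl-/- macrophages. Rps6ka5, which encodes the kinase MSK1, had log2 changes of -0.70 and -0.50 and Map3k5, which encodes ASK1, of -0.26 and -0.52. Mapk11, which encodes a p38 kinase, was the 1 gene of this list that passed between genotypes, with a log2 ratio of -0.68 at 0 h (1.99% of all genes were lower).

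The genes downstream of Zfp36 and Zc3h12a included more that were higher than lower after KLA in both genotypes at the times sampled. Of 15 known tristetraprolin or Regnase-1 targets analysed, of 20, 5 were higher at 6 h in WT macrophages (Il1b, Cxcl1, Ptgs2, Csf3 and Plk3, against 5.39% of all genes) and 7 in Arntl-/- macrophages (3.1%). At 24 h 8 and 7 were higher (8.7% and 7.79%) and the chemokine genes Ccl2 and Ccl4 were lower (2 in each genotype, against 8.84% and 9.62%). At 48 h 8 were higher (13.5%) and none was lower (15.2%) in WT macrophages, and 5 were higher (15.2%) and 3 lower (17.3%) in Arntl-/- macrophages, the latter being Ccl2, Ccl4 and Csf3. Their median log2 change at 6 h was 0.47 and 0.44, against -0.03 and 0.00 over all genes. Il1b had log2 changes of 1.81 and 1.11 at 6 h and of 3.68 and 2.94 at 24 h in WT and Arntl-/- macrophages, and Cxcl1 of 1.90 and 0.99 at 6 h and of 2.70 and 0.46 at 24 h. In resting Arntl-/- macrophages 3 of these targets (Cxcl1, Il1b and Csf3) were at least 1.5-fold higher than in WT macrophages (3.22% of all genes) and none was lower (1.99%), with log2 ratios of 2.01 for Cxcl1 (26 WT and 155 Arntl-/- reads) and 0.99 for Il1b. Cxcl1 and Csf3 had under 100 scaled reads in WT macrophages at 0 h and were analysed through later WT libraries, so that the filter favours a low WT value at 0 h for them. Of the 1155 genes with under 200 scaled reads in every WT library, 14% were at least 1.5-fold higher in Arntl-/- macrophages at 0 h. At 6 h 2 were higher (Cxcl1 at 1.11 and Il1a at 0.77, against 2.03% of all genes) and at 24 h 2 were (Il1a at 0.92 and Plk3 at 0.77, against 3.62%), with none lower (2.66% and 3.13%). At 48 h Il1b was higher (0.71, against 5.75% of all genes) and 3 were lower (5.91%), Cxcl1 (-0.59), Ccl2 (-0.71) and Csf3 (-1.10), so that the ratios of Cxcl1 and Csf3 lay on different sides of 1 at 0 and 48 h. Of 17 CCR4-NOT and deadenylation genes, Pan2 was the 1 that was higher in Arntl-/- macrophages at 0 h and none passed between genotypes at 6, 24 or 48 h. Cnot6l had log2 changes of -0.59 and -0.11 at 6 h and Cnot6 of -0.38 and -0.11. Of 5 genes for partners of the SOCS box in its ubiquitin ligase, Tceb2 was the 1 that was higher in Arntl-/- macrophages at 6 h and none passed between genotypes at the other times. Rbx1 had log2 changes of -0.24 and -0.05 at 6 h and Rnf7 of -0.11 and -0.05.

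To describe which members and which other genes shared a profile, Pearson's r was computed on log2 scaled FPKM over the 8 libraries, which share their culture times and 2 genotypes. Such values describe 8 points and are chosen as the highest of many genes. Dusp1 and Dusp16 had an r of 0.93 and Socs3 and Dusp1 of 0.87, while Dusp6 ran against Cish (-0.87) and Zc3h12a (-0.84). Socs1 resembled Doc2g (0.95) and Cxcl1 (0.94) most. Socs3 resembled Ppm1n (0.98) and Gdpd1 (0.97), and Cish resembled Kcnj2 (0.98) and Dedd (0.98). For Dusp1 they were Icam1 (0.97), the leukocyte adhesion ligand, and Taok2 (0.95), and for Dusp16 they were Taok2 (0.98) and Neurl3 (0.98). The values for the remaining members were 0.98 for Dusp2 with Clcn6, 0.99 for Dusp6 with Polr1a and 0.98 with Arhgef7, 0.94 for Zfp36 with Pop5 and 0.93 with Cyp2j6, and 0.98 for Zc3h12a with Mrps25 and with Gpbp1l1.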

How the data were processed

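PolyA RNA-seq libraries of BMDMs were analyzed, 1 for each of 2 genotypes at 4 times after KLA. According to the labels, the study's methods and the file header, the authors aligned paired-end reads to mm9 with STAR and counted them with HOMER on RefSeq exons, on both strands, allowing no more than 3 tags at a position. They kept 1 transcript per gene and deposited FPKM per 10000000 reads. No version of STAR or HOMER is given in the sources used here. Counting on both strands cannot separate antisense reads. No other gene of the table overlapped a member. Of 12 value columns, 4 matched no sample label and were not used, and 1 incomplete line was left out. The ChIP-seq samples were not analysed here.

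FPKM multiplied by exon length fell on whole multiples of 1 read for 99.91% to 100% of the low values (tolerance 0.02 of a read beside rounding), which gave the reads behind each value. To scale the libraries, median-of-ratios size factors were used. Ratios were taken as log2 with a pseudocount of 0.1 and counted from 1.5-fold, with no test. Intervals are exact binomial (Clopper-Pearson) intervals of the ratio of reads at the 95% level, and counts of 3 or fewer gave no ratio. Genes analysed had at least 100 scaled reads in a WT library. The steps were tested on simulated data with Poisson counts, in which changes larger than 1.5-fold were placed in genes with more reads than Socs1 and Dusp2. That simulation does not cover calls near the line or on few reads. The members, lists and rules were chosen with earlier results of these data known.

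Named were all members, the 2 genes of each other pathway list with the largest mean change from 0 to 6 h, the 2 genes most correlated with each member (for Dusp2, 1 of them is not reported here), and Arntl. Upstream windows of 250 bases were read from mm9 (23951 genes) and searched on both strands. Alternatives were values as deposited, upper-quartile scaling, pseudocounts of 1 and 0.01, lowess corrections for expression level (fraction 0.3) on FPKM and on reads, a fold of 2, and other filters for the background. The background of genes with under 200 scaled reads was chosen after seeing the data. The software was statsmodels 0.14.6, scipy 1.17.1, pandas 2.3.3, numpy 2.4.6 and matplotlib 3.10.9 under Python 3.11.15.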

Additional observations from a re-analysis of the deposited data

How the results depend on the processing

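The counts of members past 1.5-fold were recomputed under 7 alternatives in each of 10 comparisons, and 65 of 70 values stayed within 1.5 times the main count. The others were 1 in place of 2 for WT cells at 6 h against 0 h and 1 in place of 3 for Arntl-/- cells at 6 h, both with a fold of 2, and 2 in place of 1 for Arntl-/- cells at 48 h with the values as deposited and with the lowess correction on FPKM, where Dusp6 was lower by 0.62 and 0.64 on the log2 scale. With a fold of 2 the count between genotypes at 0 h was 0 in place of 2. Of 540 alternative log2 ratios of single members, 481 stayed inside the counting interval, 59 moved outside it, and 0 called ratios turned direction. Of 20 called ratios, Cish at 48 h in Arntl-/- cells had a log2 ratio of 0.53, below the line, with the values as deposited, and Zfp36 at 6 h in Arntl-/- cells had as little as 0.49. Ratios that passed only under an alternative were Zfp36 at 6 h in WT cells (as deposited 0.63, lowess on FPKM 0.60), Dusp6 at 48 h in WT cells (-0.66, -0.67 and, with lowess on reads, -0.62) and in Arntl-/- cells (above), and, as deposited, Cish at 6 h in WT cells (0.62) and between genotypes at 0 h (0.64). With the values as deposited, the all-gene median shifted to 0.13 at 6 h and -0.13 at 48 h in WT cells, to -0.19 at 48 h in Arntl-/- cells, and to -0.13 between genotypes at 6 h. The share of all genes past 1.5-fold ranged from 1.99% to 17.3% over the comparisons, from 8.79% to 22.1% for genes with an FPKM of at least 1 and from 6.74% to 16.6% with no filter. No libraries are paired by a replicate number in the labels, a comparison of genotypes with time as a block was not run, and no library could be left out because each condition had 1. Depth limits Cish, Dusp2, Socs1 and Socs2.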
